A study of Mus musculus with 18 samples.

Results

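Interferon-stimulated genes are the genes that cells switch on when an interferon reaches its receptor. A list of 34 such genes was followed here through brain RNA of mice with and without glioma, and 33 of them were rows among the 23420 gene symbols of the count table. The genes were matched to the table by name, and the list itself was drawn up with earlier results of these data known. Ifi27 was not a row under that symbol, and Ifi27l1, which RefSeq gives as an older name of the gene now called Ifi27, is described apart from all counts. By role the 33 genes were 4 sensors of RNA or other nucleic acid, 5 transcription regulators, 6 members of the ISG15 system and the PARP-DTX regulators, 11 antiviral effectors, 6 interferon-inducible GTPases and 1 chemokine.

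All mice carried Camk2a-Cre-Rpl22HA: Cre made under the Camk2a promoter, active in forebrain excitatory neurons, tags the ribosomal protein Rpl22 with HA in those cells, so that tagged ribosomes can be pulled down with their mRNA. RNA from that pulldown (IP) and total RNA (input) were sequenced from mice without tumor (control), mice with glioma cells implanted in the cortex (tumor), and tumor mice given AZD8055, which inhibits mTOR kinase (AZD). There were 3 libraries in every combination of condition and fraction, or 18 in 6 groups. The glioma cells, the mouse strain, age and dose, and whether each number is a separate animal, were not stated in the labels used here, so p-values reflect spread among libraries that may be technical in part.

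Interferons are secreted when sensors such as RIG-I (Ddx58) and MDA5 (Ifih1) detect foreign RNA, or, for interferon gamma, by activated lymphocytes. Type I interferon receptors act through the kinases Jak1 and Tyk2 to bring Stat2 and Irf9 into a factor that binds the interferon-stimulated response element (ISRE), while interferon gamma acts on genes that carry the gamma-activated site (GAS). In brain, microglia, astrocytes, endothelial cells and neurons can all respond, and tumor cells can too.

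The response element is written in the promoters of many of these genes, so 4 promoters are shown: those of the genes with the largest change in tumor IP that hold an ISRE core in the bases before the annotated gene. The core searched was GAAANNGAAA on both strands, in RefSeq windows on GRCm38.p6 that run from 250 bases before to 50 bases after each start, and 25 of the 33 genes had a window. The core was present for 14 of those 25 genes (56%), against 3.99% of the 27025 genes with a window. The GAS core TTCNNNGAA, which reads the same on both strands, was present for 7 of the 25 (28%), against 9.55% of all genes. Below, only bases before the annotated gene are printed, on the gene's strand, with the ISRE core in capitals; Cxcl10 is at chr5:92348890-92349139 (minus strand), Irgm1 at chr11:48871421-48871670 (minus strand), Gbp3 at chr3:142559794-142560015 (plus strand) and Ifit1 at chr19:34640639-34640888 (plus strand).
Cxcl10: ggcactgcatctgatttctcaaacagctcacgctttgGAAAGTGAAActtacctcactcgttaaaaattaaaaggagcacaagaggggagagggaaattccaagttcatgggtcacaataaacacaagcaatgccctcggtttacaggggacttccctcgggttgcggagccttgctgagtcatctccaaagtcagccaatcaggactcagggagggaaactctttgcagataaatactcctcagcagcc
Irgm1: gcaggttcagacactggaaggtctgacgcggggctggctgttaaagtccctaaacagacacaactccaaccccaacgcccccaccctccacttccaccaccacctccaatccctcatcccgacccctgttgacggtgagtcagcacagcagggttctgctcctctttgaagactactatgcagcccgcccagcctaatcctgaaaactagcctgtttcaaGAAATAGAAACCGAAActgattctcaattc
Gbp3: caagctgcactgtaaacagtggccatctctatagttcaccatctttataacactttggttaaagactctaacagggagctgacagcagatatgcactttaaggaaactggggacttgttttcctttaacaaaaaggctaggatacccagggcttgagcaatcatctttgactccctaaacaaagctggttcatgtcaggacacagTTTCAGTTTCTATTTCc
Ifit1: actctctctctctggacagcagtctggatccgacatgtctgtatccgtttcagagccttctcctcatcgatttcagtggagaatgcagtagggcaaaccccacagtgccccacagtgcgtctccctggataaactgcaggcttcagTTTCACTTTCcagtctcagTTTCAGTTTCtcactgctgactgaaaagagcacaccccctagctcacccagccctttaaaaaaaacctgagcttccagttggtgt

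Irgm1 and Gbp3 each hold 2 cores that overlap, so their capitals run on as a single stretch. The Ifit1 cores stand apart, the first starting 104 and the second 85 bases before the start. Cxcl10 has its core far upstream in the window, 213 bases before the start. Isg15, which encodes a small ubiquitin-like protein, had the most matches, 3 overlapping cores whose first bases lie 78, 72 and 66 bases before its start. The Ddx58 core starts after the annotated start, 3 bases in, and its promoter is not shown. A match to these letters is a description of the sequence and not a mapped binding site. In tumor IP, 11 of the 14 genes with the core were called higher than in control (median log2 fold 1.36). So were 10 of the 11 genes with a window and no core (1.59), against 26.0% of all genes.

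The members fall into several chromosomal neighbourhoods. The 3 Ifit genes lie between 34550550 and 34650009 on chromosome 19, Gbp7, Gbp3 and Gbp2 lie between 142530336 and 142638008 on chromosome 3, and Parp14, Dtx3l and Parp9 lie between 35831892 and 35972621 on chromosome 16. Chromosome 11 held 8 members, among them the GTPase genes Irgm1, Ifi47 and Igtp. RefSeq annotation has 15 of the 33 members overlapping another annotated gene, among them Dtx3l and Parp9 (558 shared bases), Ifit1 with Ifit1bl1, and Cxcl10, which lies inside the span of Art3. The kit keeps the strand of the RNA, but whether counting used it is not given in the sources used here, so reads of overlapping genes on opposite strands may not be told apart. Reads of near-identical copies, as in the Ifit, Gbp and Oasl families, may be split uncertainly. Mx1 is annotated as a transcribed pseudogene in this reference strain.

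Library totals ran from 13561511 to 34178417 counts, and the 33 members together took from 0.0132% to 0.0920% of a library. Of the members, 32 had at least 1 count in every library. Library names form 3 sets: control and tumor input in the first, control and tumor IP in the second, and all AZD libraries in the third. Comparisons of tumor with control in either fraction therefore stay inside a set, as does that of the 2 AZD fractions, whereas in every comparison of AZD with another condition, and in IP against input of control or tumor, the set and the group cannot be told apart. Excitatory neuron markers fixed for the check (10 genes) were called higher in IP than in input for 4 genes in control, 0 in tumor and 10 in AZD, where 17.9%, 2.07% and 28.9% of all genes were called higher. Microglia and macrophage markers (12 genes) were called lower in IP for 5 genes in control, 0 in tumor and 11 in AZD, where 18.9%, 2.91% and 32.4% of all genes were called lower. None of these markers was at 0 in any group. In bulk RNA, fewer cells of a type and less RNA per cell cannot be told apart.

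With tumor, most members of the list rose in both fractions. In IP, 26 of the 32 members tested were higher in tumor than in control and 0 were lower, where 26.0% of all 15734 genes tested were higher and 20.8% lower. In input, 23 of 32 were higher and 0 lower, against 24.5% higher and 23.6% lower over all 15511 genes. The median change over the tested members was 1.58 in IP and 1.51 in input on the log2 scale, and the median over all genes was 0.02 and -0.01. A call here is an adjusted p under 0.05 from edgeR's quasi-likelihood test with Benjamini-Hochberg adjustment over all genes tested, and errors beside a log2 fold are its standard errors. Values in libraries are CPM, the count scaled to library size with TMM factors.

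**Figure D1:**
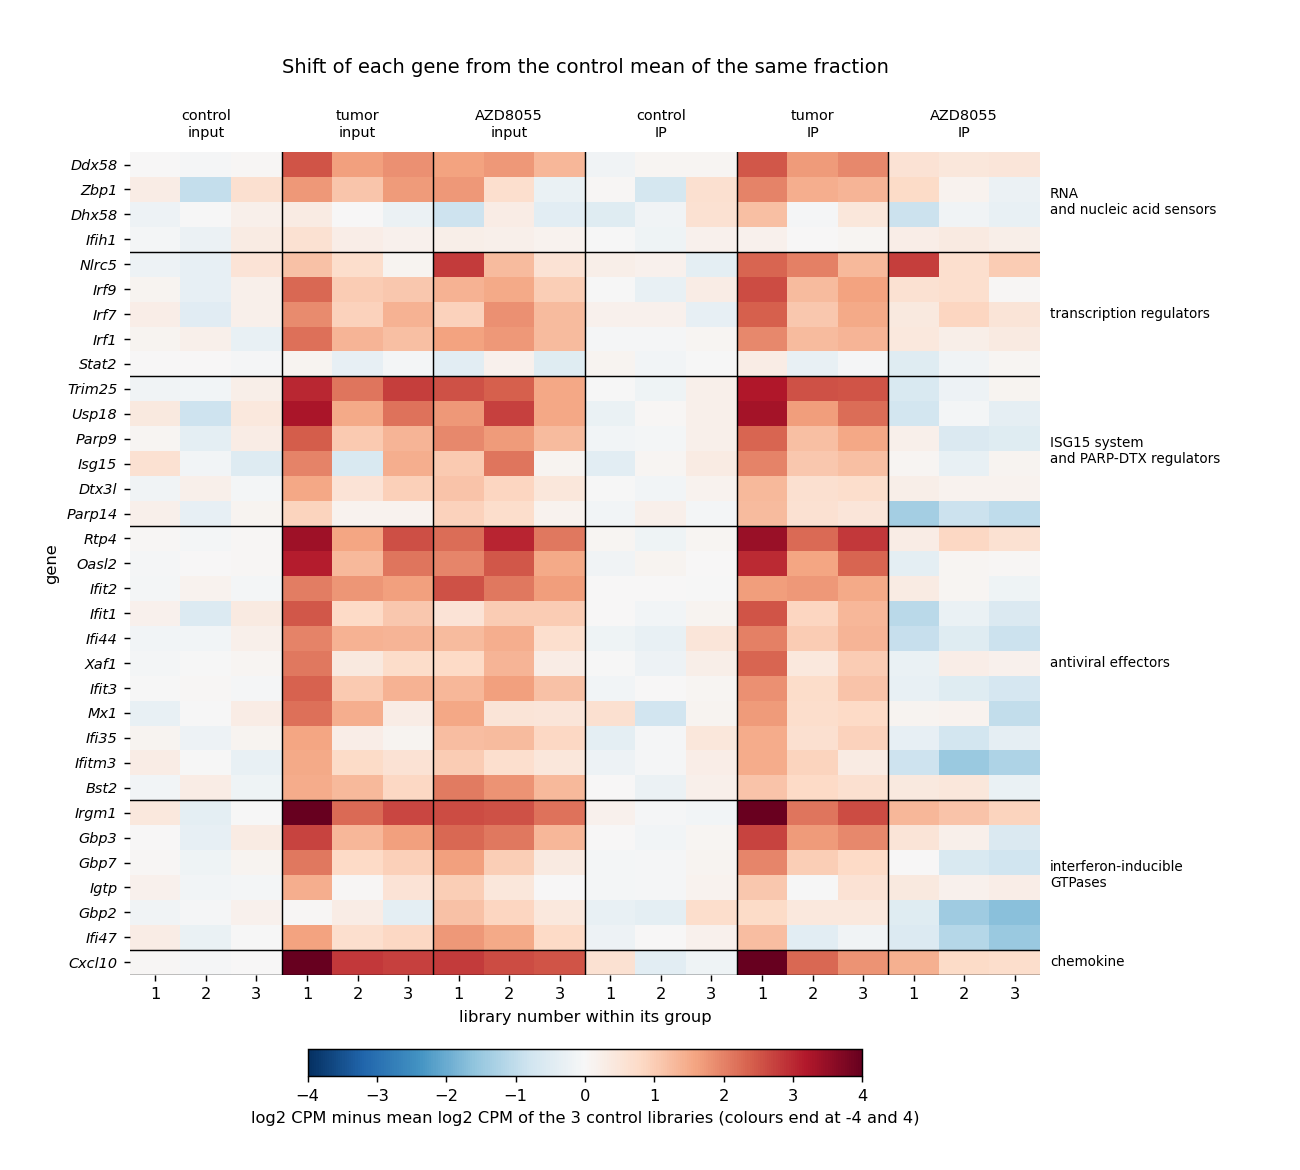
Shift of each of the 33 members (rows, grouped by role) in each of the 18 libraries (columns, numbered within their group), as log2 CPM minus the mean log2 CPM of the 3 control libraries of the same fraction. Red is higher and blue lower than control; tumor input, tumor IP and AZD input are red for most members, AZD IP is near control, and library 1 is the highest of its 3 for 32 of 33 members in both tumor groups.

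The size of the rise differed between tumor libraries in the same way in both fractions. The median shift of the 29 members tested in every comparison, relative to control, was 2.04, 0.92 and 1.07 in tumor input libraries 1, 2 and 3, and 1.96, 0.98 and 1.30 in tumor IP. Library 1 was the highest of its 3 for 32 of the 33 members in tumor input and for 32 of 33 in tumor IP. The exceptions were Gbp2 in input and Ifit2 in IP. The same number 1 libraries had the lowest oligodendrocyte markers (median shift -2.22 in input and -2.29 in IP, against -0.84 to -0.66 in the other tumor libraries) and the lowest excitatory neuron markers (-1.46 and -1.23, against -0.77 to -0.65). Inhibitory neuron markers (-1.57 and -1.56, against -0.93 to -0.69) and microglia markers (-0.15 and -0.39, against -0.08 to 0.12) were also lowest there. Endothelial and pericyte markers were highest there (0.10 and 0.02, against -0.26 to -0.08). Glioma lineage markers were lowest there (3.13 and 2.95, against 3.17 to 3.54). Proliferation markers stood at 5.06 and 4.91 there, against 4.83 to 5.07. Astrocyte markers stood at -0.25 and -0.57, against -0.36 to -0.25. The part of these differences in the members' values was not tested. Without tumor library 1, 22 of 26 calls remained in IP and 19 of 23 in input, and the median change of the members fell to 1.21 and 1.06.

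Among the sensors, Ddx58 rose with tumor and its relative Ifih1 was not called. Ddx58 stood at 8.42, 8.05 and 8.66 CPM in the control inputs, 48.1, 26.3 and 30.1 in tumor input, and 25.8, 28.1 and 21.3 in AZD input. Its IP levels were 5.16, 6.12 and 6.05 CPM without tumor, 32.6, 19.0 and 22.3 with tumor and 8.59, 7.97 and 8.03 under AZD. Every tumor library lay above every control library in both fractions, a log2 fold of 2.12 ± 0.19 in IP (adjusted p = 9.29e-06) and 2.05 ± 0.22 in input (adjusted p = 6.14e-05). AZD IP fell back by 1.62 ± 0.19 on the log2 scale from tumor IP (adjusted p = 3.66e-05), to just above the control libraries.

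Ifih1, which encodes the sensor of long double-stranded RNA, stayed between 9.32 and 17.0 CPM in all 18 libraries. It stood at 10.5, 9.44 and 14.3 CPM in the control inputs, 17.0, 13.6 and 12.7 in tumor input and 13.2, 12.9 and 12.5 in AZD input. IP libraries held 10.3, 9.32 and 11.9 CPM of it in control, then 11.8, 10.6 and 11.0 in tumor and 12.7, 13.4 and 12.3 after AZD, where all 3 libraries lay above those of control and tumor. Control and tumor overlapped in both fractions, with a log2 fold of 0.11 ± 0.13 in IP (adjusted p = 0.511) and 0.33 ± 0.18 in input (adjusted p = 0.143). Without control library 3 the input value passed the threshold (0.52, adjusted p = 0.0455). Dhx58, the third helicase of this family and a regulator of the other members, lay between 0.327 and 2.12 CPM and was not called in either fraction (log2 fold 0.61 ± 0.45 in IP, 0.04 ± 0.34 in input). Zbp1, a sensor of left-handed nucleic acid, was too low to be tested here: 5 counts in all of control input and 6 in control IP, against 29 in tumor input and 25 in tumor IP. Its ratio of summed counts per scaled total, tumor over control, was 4.24 in input (exact 95% interval 1.62 to 14.0). In IP it was 4.74 (1.90 to 14.1), and both intervals cover counting error only.

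**Figure D2:**
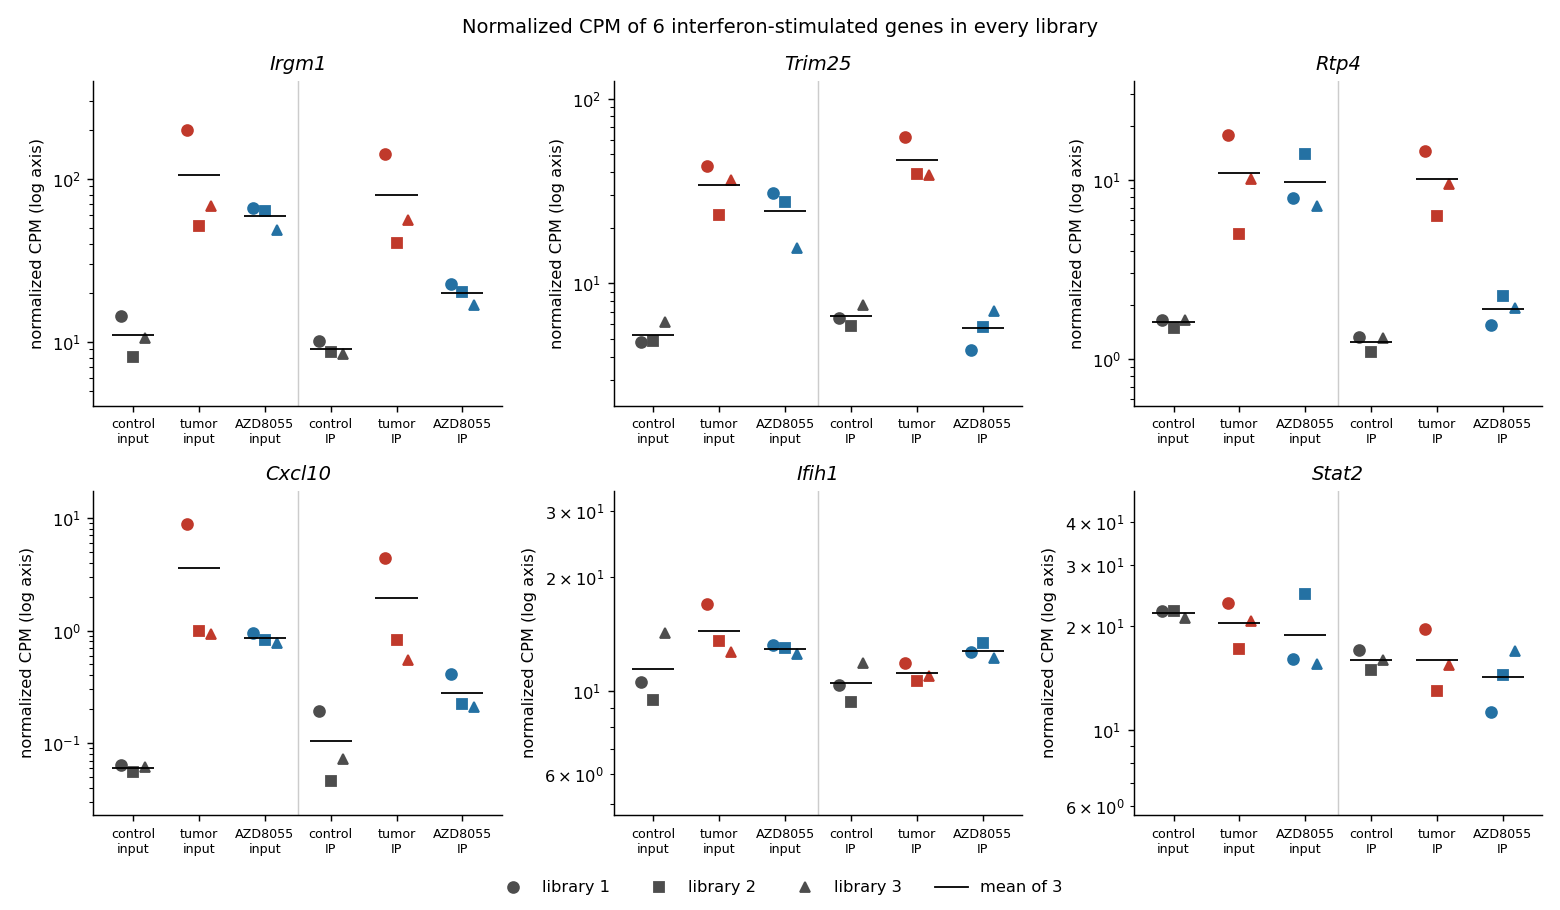
Normalized CPM (log axis) of Irgm1, Trim25, Rtp4, Cxcl10, Ifih1 and Stat2 in each of the 18 libraries, by group; points are libraries 1 to 3 by shape, and lines are means of 3. For the first 4 genes the tumor libraries lie above all control libraries in both fractions and AZD IP lies below tumor IP; Ifih1 stays between 9.32 and 17.0 CPM and Stat2 between 11.3 and 24.7 CPM.

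Of the transcription regulators, Irf9, Irf7, Irf1 and Nlrc5 were higher in tumor IP and Stat2 was not. Stat2, the partner of Irf9 in the ISRE-binding factor, stood at 22.1, 22.2 and 21.1 CPM in the control inputs, 23.3, 17.2 and 20.7 in tumor input and 16.1, 24.7 and 15.5 in AZD input. Levels in IP were 17.1, 14.9 and 15.9 CPM for control libraries, 19.6, 12.9 and 15.4 for tumor ones and 11.3, 14.4 and 17.0 for AZD ones. The 3 conditions overlapped in each fraction, and the log2 fold of tumor against control was 0.02 ± 0.17 in IP (adjusted p = 0.923) and -0.11 ± 0.18 in input (adjusted p = 0.639). Irf9, the DNA-binding subunit of the same factor, rose with tumor by 1.96 ± 0.35 in IP (adjusted p = 0.00138) and 1.57 ± 0.33 in input (adjusted p = 0.00337). Irf1, a regulator induced by interferon gamma, rose by 1.58 ± 0.18 (adjusted p = 6e-05) and 1.65 ± 0.27 (adjusted p = 0.00103).

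Irf7, which drives transcription of the type I interferons, stood at 2.17, 1.28 and 2.09 CPM in the control inputs, 6.91, 3.48 and 4.91 in tumor input and 3.46, 6.63 and 4.45 in AZD input. Its IP levels were 0.968, 0.960 and 0.652 CPM without tumor, 4.83, 1.90 and 2.60 with tumor and 1.15, 1.62 and 1.26 under AZD. Tumor libraries lay above control in both fractions, by 1.87 ± 0.37 in IP (adjusted p = 0.00208) and 1.46 ± 0.34 in input (adjusted p = 0.00578). AZD IP libraries lay between those of control and tumor and fell by 1.21 ± 0.36 on the log2 scale from tumor IP (adjusted p = 0.0143), a call lost without tumor library 1 (-0.76, adjusted p = 0.0599).

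Nlrc5, the transactivator of MHC class I genes, was called higher in AZD than in control in both fractions. It stood at 1.40, 1.28 and 2.40 CPM in the control inputs, 3.74, 2.69 and 1.74 in tumor input and 11.8, 4.08 and 2.50 in AZD input. IP libraries held 0.387, 0.366 and 0.217 CPM of it in control, then 1.96, 1.54 and 0.908 in tumor and 2.70, 0.553 and 0.733 after AZD. AZD library 1 was the highest of its group in both fractions, and the AZD and tumor libraries overlapped. Nlrc5 rose with tumor in IP (2.18 ± 0.62, adjusted p = 0.0141), with the call lost when control library 3 was left out (1.96, adjusted p = 0.0572). It was the 1 member called higher in AZD IP than in control IP (1.90 ± 0.63, adjusted p = 0.0396), and that call was lost without AZD library 1 (0.99, adjusted p = 0.152), without any 1 control library and with all 18 libraries in one fit (1.87, adjusted p = 0.0543). In input the same difference was 1.89 ± 0.55 (adjusted p = 0.0217), and that call was lost without AZD library 1 (0.97, adjusted p = 0.108), control library 1 (1.79, adjusted p = 0.0766) or control library 2 (1.73, adjusted p = 0.0883).

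All 6 members of the ISG15 system and the PARP-DTX group were higher in tumor IP than in control IP, and Usp18, Trim25, Dtx3l and Parp9 were so in input as well. Of all genes, 26.0% were higher with tumor in IP and 24.5% in input. Trim25, a ubiquitin ligase that activates RIG-I signalling, stood at 4.78, 4.89 and 6.14 CPM in the control inputs, 42.9, 23.4 and 36.4 in tumor input and 30.9, 27.7 and 15.5 in AZD input. Levels in IP were 6.52, 5.85 and 7.64 CPM for control libraries, 62.2, 39.1 and 38.5 for tumor ones and 4.34, 5.79 and 7.09 for AZD ones. Tumor IP was 7.09-fold above control IP (log2 2.83 ± 0.23, adjusted p = 5.31e-06). AZD IP lay 8.09-fold below tumor IP (log2 -3.02 ± 0.23, adjusted p = 2.61e-06) and overlapped control IP, while AZD input stayed above every control input library (2.25 ± 0.29, adjusted p = 0.000329).

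Usp18, the protease that removes ISG15 from proteins and dampens receptor signalling, stood at 1.66, 0.666 and 1.72 CPM in the control inputs, 12.8, 3.73 and 5.89 in tumor input and 4.33, 8.80 and 3.78 in AZD input. Its IP levels were 0.839, 1.05 and 1.20 CPM without tumor, 11.1, 3.45 and 5.16 with tumor and 0.573, 0.959 and 0.768 under AZD. Tumor and control libraries did not overlap, and AZD IP fell by 3.06 ± 0.43 on the log2 scale from tumor IP (adjusted p = 0.000146). The rise with tumor was 2.69 ± 0.41 in IP (adjusted p = 0.000451) and 2.47 ± 0.54 in input (adjusted p = 0.00392), and 2.10 and 1.82 without tumor library 1.

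Isg15 itself was thinly counted. It stood at 0.510, 0.278 and 0.184 CPM in the control inputs, 1.47, 0.166 and 0.981 in tumor input and 0.729, 1.66 and 0.334 in AZD input. IP libraries held 0.258, 0.411 and 0.507 CPM of it in control, then 1.80, 0.907 and 1.01 in tumor and 0.409, 0.295 and 0.419 after AZD. The groups separated in IP (tumor against control 1.66 ± 0.42, adjusted p = 0.00771) but overlapped in input (1.41 ± 0.81, adjusted p = 0.169), where tumor library 2 held 4 counts. Leaving that library out brought the input value past the threshold (1.91, adjusted p = 0.0396).

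Parp14, an ADP-ribosyltransferase, stood at 8.10, 5.66 and 7.68 CPM in the control inputs, 13.1, 7.74 and 7.85 in tumor input and 13.6, 11.5 and 7.84 in AZD input. Levels in IP were 4.35, 5.44 and 4.46 CPM for control libraries, 11.5, 7.26 and 6.65 for tumor ones and 1.80, 2.58 and 2.27 for AZD ones. Its AZD IP libraries lay below those of control IP as well as tumor IP, by 1.07 ± 0.25 (adjusted p = 0.00731) and 1.93 ± 0.25 (adjusted p = 6.99e-05) on the log2 scale. Dtx3l and Parp9, which encode a ubiquitin ligase and its ADP-ribosyltransferase partner, rose with tumor in IP by 0.93 ± 0.17 and 1.80 ± 0.30 (adjusted p = 0.00131 and 0.000791).

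Among the antiviral effectors, 10 of 11 were called higher with tumor in each fraction. Over all genes, 26.0% were called higher in IP and 24.5% in input. All 11 had every tumor library above every control library in both fractions, a separation that was not counted over all genes. Rtp4, a chaperone that also limits flaviviruses, stood at 1.66, 1.50 and 1.66 CPM in the control inputs, 17.8, 5.01 and 10.03 in tumor input and 7.88, 13.9 and 7.18 in AZD input. Its IP levels were 1.32, 1.10 and 1.30 CPM without tumor, 14.5, 6.30 and 9.44 with tumor and 1.55, 2.25 and 1.92 under AZD. It rose 8.18-fold with tumor in IP (3.03 ± 0.31, adjusted p = 2.12e-05) and 6.76-fold in input (2.76 ± 0.45, adjusted p = 0.000944), and was 5.26-fold lower in AZD IP than in tumor IP (adjusted p = 5.51e-05).

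The Ifit genes encode proteins that bind foreign RNA and block its translation. Ifit1 stood at 5.17, 3.05 and 5.90 CPM in the control inputs, 25.9, 7.87 and 9.76 in tumor input and 6.65, 9.25 and 9.24 in AZD input. IP libraries held 3.29, 2.97 and 3.48 CPM of it in control, then 18.9, 5.90 and 8.27 in tumor and 1.47, 2.66 and 2.16 after AZD. Tumor library 1 stood far above the other tumor libraries, and the rise of 1.78 ± 0.39 in IP (adjusted p = 0.00392) became 1.15 without it (adjusted p = 0.00296), the rise of 1.63 ± 0.43 in input (adjusted p = 0.01) became 0.89 (adjusted p = 0.0146). AZD IP was below every control IP library, though not called against control (-0.59 ± 0.41, adjusted p = 0.297). Without control library 2 the input call was lost (1.39, adjusted p = 0.051).

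Ifit3 stood at 6.57, 6.88 and 6.39 CPM in the control inputs, 34.1, 13.6 and 17.6 in tumor input and 16.6, 21.0 and 14.9 in AZD input. Levels in IP were 7.26, 7.95 and 8.19 CPM for control libraries, 27.7, 13.2 and 17.4 for tumor ones and 6.38, 5.50 and 4.82 for AZD ones. Tumor rose by 1.34 ± 0.24 in IP (adjusted p = 0.00115) and 1.71 ± 0.30 in input (adjusted p = 0.00151), and AZD input kept above control input by 1.42 ± 0.31 (adjusted p = 0.00529). Ifit2 had the smallest error of these 3 genes, with a rise of 1.67 ± 0.12 in IP (adjusted p = 1.85e-06) and a fall of 1.59 ± 0.12 on the log2 scale from tumor IP to AZD IP (adjusted p = 1.91e-06).

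Bst2, or tetherin, which holds budding virus at the cell surface, had the lowest change of the effectors with tumor in IP. It stood at 1.15, 1.55 and 1.11 CPM in the control inputs, 3.71, 3.23 and 2.29 in tumor input and 5.61, 4.59 and 3.23 in AZD input. Its IP levels were 1.68, 1.42 and 1.96 CPM without tumor, 3.82, 2.95 and 2.66 with tumor and 2.21, 2.32 and 1.36 under AZD. Tumor lay above control in both fractions, with log2 folds of 0.91 ± 0.27 in IP (adjusted p = 0.0179) and 1.26 ± 0.31 in input (adjusted p = 0.00685). The IP call was lost without tumor library 1 (0.75, adjusted p = 0.0566), control library 1 (0.90, adjusted p = 0.0501) or control library 2 (0.81, adjusted p = 0.067). Its fall from tumor IP to AZD IP (-0.71 ± 0.28, adjusted p = 0.0448) was lost in DESeq2 (adjusted p = 0.0747), with RLE scaling (0.0684), with no filter on low counts (0.0665) and with the library number as a block (0.0556). It was also lost without AZD library 1 (adjusted p = 0.0501), AZD library 3 (0.164), tumor library 1 (0.126) or tumor library 2 (0.072).

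The other effectors called in IP ranged from 0.99 ± 0.30 for Ifitm3, which blocks virus entry, to 2.47 ± 0.32 for Oasl2, an oligoadenylate synthetase relative, with Xaf1, Ifi44 and Ifi35 at 1.53, 1.59 and 1.10. Ifi35 was above control in every tumor input library but not called there (0.84 ± 0.39, adjusted p = 0.0946). Mx1 was called in input (1.73 ± 0.59, adjusted p = 0.0317) and not in IP (1.17 ± 0.56, adjusted p = 0.107). Ifi27l1, left out of all counts, rose from 17.9 to 18.7 CPM in control IP to 49.1 to 80.1 in tumor IP (1.95 ± 0.17, adjusted p = 7.06e-06) and was at 21.5 to 24.1 with AZD.

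Among the interferon-inducible GTPases, which attack the vacuoles of intracellular pathogens, Irgm1 had the largest change of the 32 tested members after Cxcl10. It stood at 14.5, 8.11 and 10.5 CPM in the control inputs, 199, 51.6 and 68.1 in tumor input and 65.9, 63.5 and 48.6 in AZD input. IP libraries held 10.2, 8.68 and 8.40 CPM of it in control, then 141, 40.6 and 55.8 in tumor and 22.7, 20.2 and 16.9 after AZD. Tumor was 8.84-fold above control in IP (3.14 ± 0.43, adjusted p = 0.000424) and 9.60-fold in input (3.26 ± 0.47, adjusted p = 0.00042), and without tumor library 1 the log2 folds were 2.43 and 2.42. AZD IP fell by 2.02 ± 0.41 on the log2 scale from tumor IP (adjusted p = 0.00231; -1.31 without tumor library 1, adjusted p = 5.64e-05), yet all 3 AZD IP libraries remained above all 3 of control IP (1.12 ± 0.42, adjusted p = 0.0678). DESeq2 called that last difference (adjusted p = 0.0392), as did the fit with the library number as a block (adjusted p = 0.026). Across conditions the numbers were not taken as pairs, so that block has no basis in the design.

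Ifi47, another GTPase of this kind, stood at 1.02, 0.666 and 0.799 CPM in the control inputs, 2.70, 1.37 and 1.53 in tumor input and 2.92, 2.49 and 1.50 in AZD input. Levels in IP were 0.645, 0.777 and 0.869 CPM for control libraries, 1.91, 0.544 and 0.681 for tumor ones and 0.491, 0.295 and 0.209 for AZD ones. Tumor was called higher in input (1.17 ± 0.39, adjusted p = 0.0304) and not in IP, where the libraries overlapped (0.44 ± 0.49, adjusted p = 0.491). The input call was lost without tumor library 1 (0.79, adjusted p = 0.128), control library 2 (1.03, adjusted p = 0.105) or control library 3 (1.14, adjusted p = 0.0839). Gbp3 and Gbp7, guanylate-binding proteins, rose with tumor in IP by 2.21 ± 0.31 and 1.37 ± 0.30 (adjusted p = 0.000279 and 0.00452), whereas their neighbour Gbp2 was not called in IP (0.49 ± 0.35, adjusted p = 0.275) or input (0.00 ± 0.24, adjusted p = 0.992). Igtp was called in IP at 0.64 ± 0.24 (adjusted p = 0.0486), with overlapping libraries.

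Cxcl10, the chemokine that attracts T cells through Cxcr3, was near 0 in control and higher in tumor. Control input held 1 count in each library (0.0638, 0.0555 and 0.0614 CPM), tumor input was at 8.76, 0.994 and 0.927 CPM and AZD input at 0.957, 0.829 and 0.779. Its IP levels were 0.194, 0.0457 and 0.0724 CPM without tumor, 4.43, 0.816 and 0.552 with tumor and 0.409, 0.221 and 0.209 under AZD. Every tumor library lay above every control library, and tumor library 1 was the highest of all in both fractions. The ratio of summed counts per scaled total, tumor over control, was 65.3 in input (268 counts against 3; exact 95% interval 22.1 to 318.5, counting error only) and 14.4 in IP (114 against 9; 7.34 to 32.4). Tumor library 1 carried much of both ratios. The fitted log2 fold was 5.76 ± 1.15 in input (adjusted p = 0.00265) and 3.84 without that library (adjusted p = 0.000287), and 4.06 ± 0.90 in IP (adjusted p = 0.00424) and 2.59 without it (adjusted p = 0.00665). T and NK cell markers were thinly counted in the same libraries: their summed level was 4.66 to 9.28 CPM in tumor IP and 9.35 to 14.6 in control IP. Of the 10 genes in this sum, 1 was high enough to be tested, so the sum is a weak measure of these cells.

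**Figure D3:**
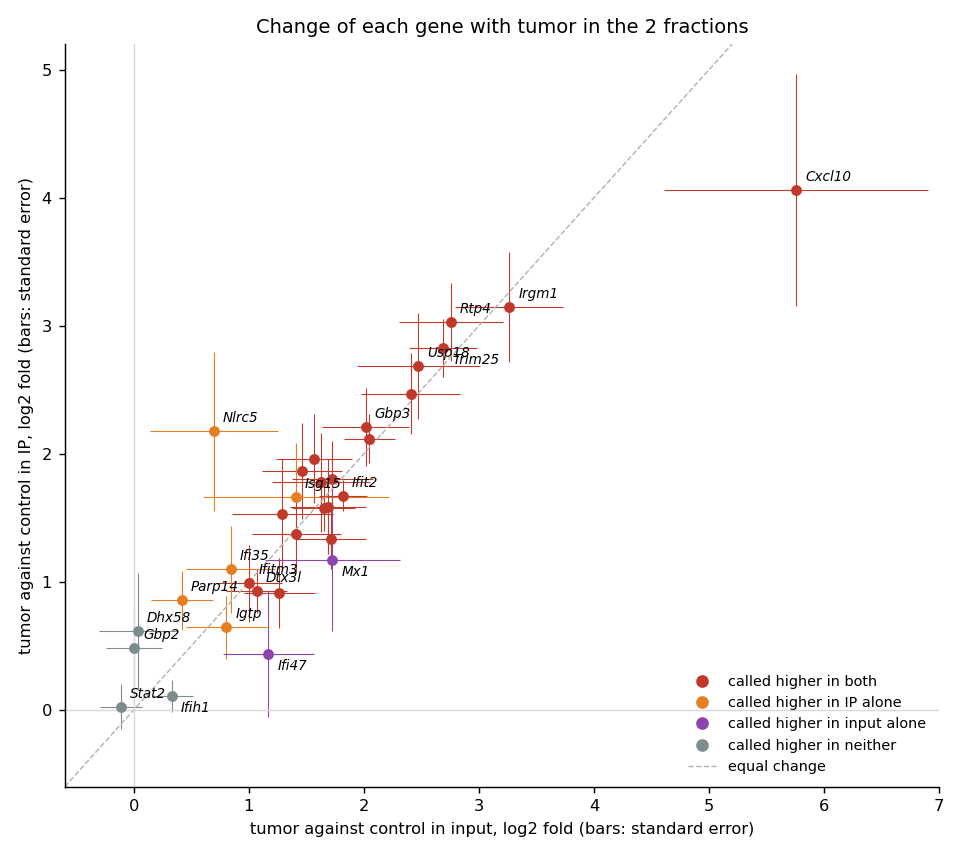
Log2 fold of tumor against control in input (horizontal axis) and in IP (vertical axis) for the 32 members tested in both, with standard errors as bars and the line of equal change dashed. Of these, 21 were called higher in both fractions, 5 in IP alone and 2 in input alone; Stat2 and Ifih1 lie near 0 on both axes.

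Across both fractions 21 members were called higher in each, 5 in IP and not in input (Nlrc5, Isg15, Parp14, Ifi35 and Igtp), 2 in input and not in IP (Mx1 and Ifi47), and 5 in neither (Ifih1, Dhx58, Zbp1, Stat2 and Gbp2). Of the last group, Zbp1 was too low to be tested in either fraction. Tested as a difference of changes over all 18 libraries, 0 of the 33 members were called in either direction, where 0.05% of 16016 genes were called higher and 0.0187% lower. At an unadjusted p under 0.05 the count of members was also 0, as it was at an adjusted p in DESeq2. These fits did not use the pairs. With the pairs as a block, 3 members were at an unadjusted p under 0.05, and 55 of all genes were called higher and 14 lower. In the main fit the members' values ran from -1.76 ± 1.91 for Cxcl10 to 1.44 ± 0.91 for Nlrc5, with a median of 0.04. With the pairs as a block Cxcl10 was at -1.47 ± 0.93 (adjusted p = 0.752). These errors are wide, so the data do not show that the changes were equal.

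With AZD8055, most members fell in IP, and 0 were called lower in input. In IP, 27 of 32 members were lower in AZD than in untreated tumor and 0 higher, against 33.4% lower and 25.1% higher over all genes, with a median of -1.74 over members and -0.09 over all genes. In input, 0 members were lower and 1 was higher (Gbp2, 0.87 ± 0.24, adjusted p = 0.0314), against 9.17% lower and 7.90% higher over all genes, with a median of -0.22 over members. The Gbp2 call was lost without AZD library 1, AZD library 2 or tumor library 3 and with all 18 libraries in one fit. Without tumor library 1 the members' median in input changed sign, to 0.27. Cxcl10 was called lower in input without tumor library 2 (-2.49, adjusted p = 0.0382) or 3 (-2.49, adjusted p = 0.0421). The 5 members not called in IP were Ifih1, Dhx58, Stat2, Nlrc5 and Igtp. This comparison and that of tumor with control share the tumor libraries. Without tumor library 1 the count in IP was 22, and Irf7, Cxcl10 (-1.40, adjusted p = 0.0587), Bst2 and Ifi47 (-1.03, adjusted p = 0.0902) were among the calls lost. The calls of Cxcl10 and Ifi47 were also lost without AZD library 2 (adjusted p = 0.0504 and 0.0638) or AZD library 3 (adjusted p = 0.0515 and 0.0813).

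Against control, few members were called in AZD IP, while most were higher in AZD input. In IP, 1 member was higher (Nlrc5) and 3 were lower, against 15.9% higher and 17.3% lower over all genes: Parp14, Ifitm3 (-1.27 ± 0.33, adjusted p = 0.0137) and Gbp2 (-1.33 ± 0.38, adjusted p = 0.0217). The members' median was -0.06, and the count of lower members was 1 without AZD library 2 or control library 3. In input, 22 of 32 members were higher and 0 lower, against 20.7% and 16.0% over all genes, with a median of 1.41; this count was lowest, 13, without control library 2. The control libraries are the same as in the comparison of tumor with control. By library, the median shift from control was 1.38, 1.5 and 0.97 for the AZD input libraries and 0.01, 0.07 and -0.17 for those of IP. All AZD libraries are in a set of their own, and the part of the set in these differences was not tested. Microglia, endothelial, astrocyte and oligodendrocyte markers were also lower in AZD IP than in control IP, as given below. Their part was not tested either.

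The 3 AZD pairs of IP and input lie within a set, and there the members were low in IP. Of 30 tested, 27 were lower in AZD IP than in AZD input and 0 higher, against 32.4% lower and 28.9% higher over all genes, with a median of -1.76. The fall was largest for Ifi47 (-2.87 ± 0.43, adjusted p = 0.00052), Gbp2 (-2.82 ± 0.35, adjusted p = 0.00019) and Usp18 (-2.79 ± 0.39, adjusted p = 0.000369). The 3 members not called were Ifih1 (0.01 ± 0.13), Stat2 (-0.36 ± 0.22) and Dtx3l (-0.41 ± 0.18).

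In control and tumor fewer members were called between fractions than in AZD, in main fits that did not use the pairs. In control, 11 of 29 tested members were lower in IP than in input and 1 was higher (Ifit2, 0.41 ± 0.10, adjusted p = 0.00524), against 18.9% lower and 17.9% higher over all genes, with a median of -0.40. Nlrc5 had the largest fall (-2.38 ± 0.40, adjusted p = 0.000354), followed by Dhx58 (-1.29 ± 0.36, adjusted p = 0.0103) and Irf7 (-1.10 ± 0.32, adjusted p = 0.0142), whose call was lost without control pair 3 (-0.84, adjusted p = 0.182) and with all 18 libraries in one fit (-1.09, adjusted p = 0.0537). The count of lower members was 7 without control pair 1, 7 without pair 2 and 6 without pair 3, where Ifit2 was not called either. In tumor, 0 of 33 were called in either direction, against 2.91% lower and 2.07% higher over all genes, with a median of -0.35; 1 member, Ifih1, was at an unadjusted p under 0.05, and DESeq2 called 0. With the numbered pairs as a block, 13 of the 33 were lower and 2 higher (Trim25, 0.45 ± 0.10, and Ifit2, 0.26 ± 0.09), against 18.2% lower and 17.6% higher over all genes in that fit.

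**Figure D4:**
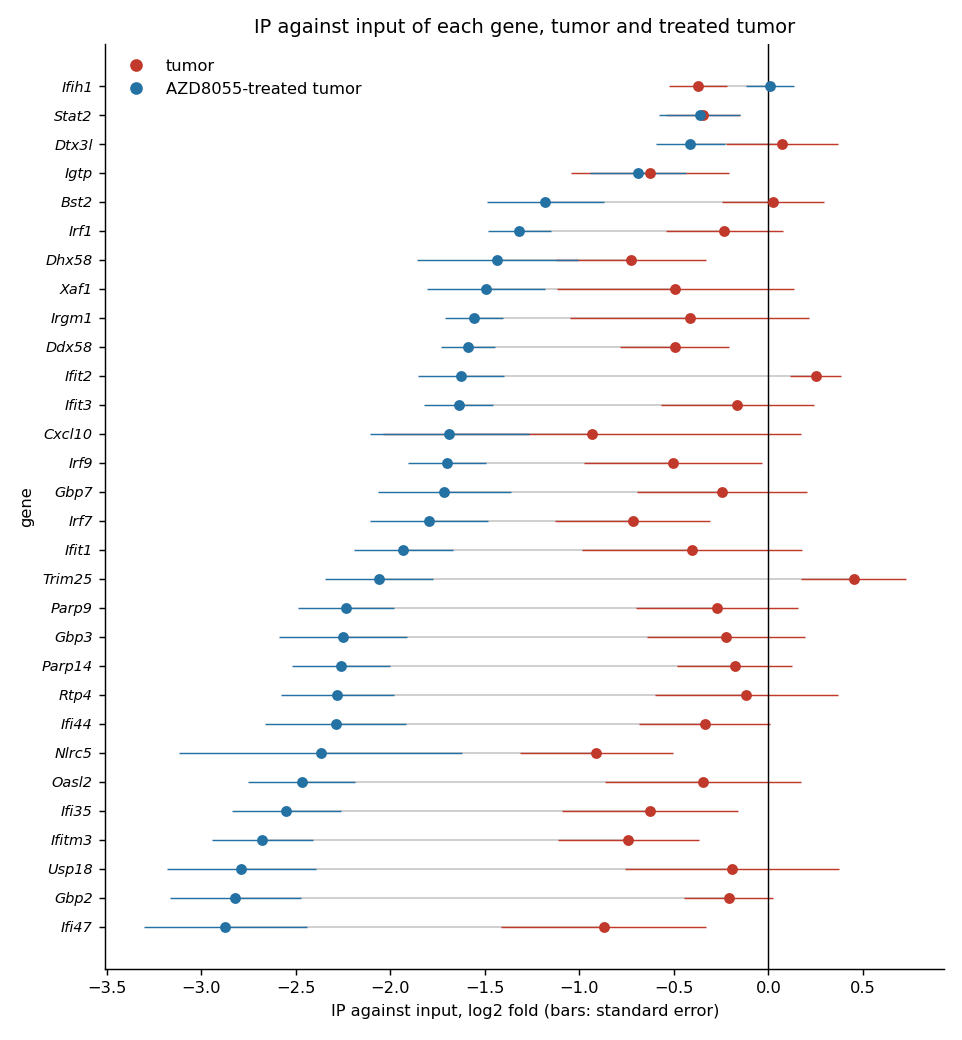
Log2 fold of IP against input in tumor (red) and in AZD8055-treated tumor (blue) for the 30 members tested in both, with standard errors as bars, ordered by the value in treated tumor. In treated tumor the 27 called members lie between -2.87 and -0.69, left of their tumor values; Stat2 and Igtp have nearly the same value in both.

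Tested directly, the IP over input ratio was lower in AZD than in tumor for 18 of 33 members and higher for 0, against 20.7% lower and 12.3% higher over all genes, with a median of -1.48. Gbp2 (-2.63 ± 0.46, adjusted p = 0.000483), Usp18 (-2.61 ± 0.72, adjusted p = 0.0115) and Trim25 (-2.52 ± 0.38, adjusted p = 0.000164) had the largest differences. Stat2 (-0.03 ± 0.27, adjusted p = 0.937) and Igtp (-0.08 ± 0.45, adjusted p = 0.911) had the smallest. The count was 11 without AZD pair 2. With the pairs as a block it was 26, and Irgm1 (-1.19, adjusted p = 8e-08), Ifit1 (-1.62, adjusted p = 2.49e-06), Irf7, Isg15 and Nlrc5 were then called. In the main fit the ratio was also lower for 12 of 12 endothelial and pericyte (median -2.15) and 11 of 12 microglia markers (-2.27). It was lower for 10 of 10 astrocyte (-2.08), 10 of 10 glioma lineage (-1.90), 9 of 10 oligodendrocyte (-2.12) and 7 of 10 inhibitory neuron markers (-1.64). For 6 of 10 excitatory neuron markers it was higher (1.03).

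Cell type markers moved between the same libraries, and their part in the members' values was not tested. In AZD IP against AZD input, 11 of 12 microglia and macrophage markers were lower (median -2.46), as were 12 of 12 endothelial and pericyte markers (-2.67), 10 of 10 astrocyte markers (-2.15), 10 of 10 markers of oligodendrocyte precursors and the glioma lineage (-2.31) and 9 of 10 inhibitory neuron markers (-1.80), whereas 10 of 10 excitatory neuron markers were higher (1.37). Monocyte, dendritic cell and neutrophil markers were lower for 4 of the 5 tested (-2.44). Over all genes, 32.4% were lower in AZD IP than in AZD input and 28.9% higher. The summed level of the microglia list was 62.8 to 95.4 CPM in AZD IP, 383 to 393 in AZD input, 279 to 388 in tumor IP and 388 to 412 in control IP. In tumor IP against control IP, 10 of 10 glioma lineage markers were higher (median 3.28) as were 10 of 10 proliferation markers (4.98). There 0 of 12 microglia markers were called (-0.03), while 9 of 10 excitatory neuron (-0.88), 8 of 10 inhibitory neuron (-1.01) and 7 of 10 oligodendrocyte markers (-1.05) were lower. Of 10 astrocyte markers 3 were higher and 4 lower (-0.38). Over all genes in this comparison, 26.0% were higher and 20.8% lower. In AZD IP against control IP, 12 of 12 microglia (-2.18), 12 of 12 endothelial and pericyte (-2.38) and 10 of 10 oligodendrocyte markers (-2.96) were lower. So were 9 of 10 astrocyte (-1.99) and 9 of 10 inhibitory neuron markers (-2.36), against 17.3% of all genes. There 10 of 10 proliferation (2.45) and 4 of 10 excitatory neuron markers (0.27) were higher, against 15.9%. Of 10 glioma lineage markers 3 were higher and 3 lower (-0.08). In AZD input against tumor input, 10 of 10 glioma lineage markers were lower (-1.11) and 0 of 10 proliferation markers were called (-0.35). Of all genes, 9.17% were lower and 7.90% higher in that comparison. In AZD IP against tumor IP, 10 of 10 glioma lineage (-3.11), 10 of 10 proliferation (-2.55) and 12 of 12 microglia markers (-2.19) were lower, against 33.4% of all genes. There 10 of 10 excitatory neuron markers were higher (1.16), against 25.1%. Monocyte, dendritic cell and neutrophil markers summed to at most 36.7 CPM in any library.

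**Figure D5:**
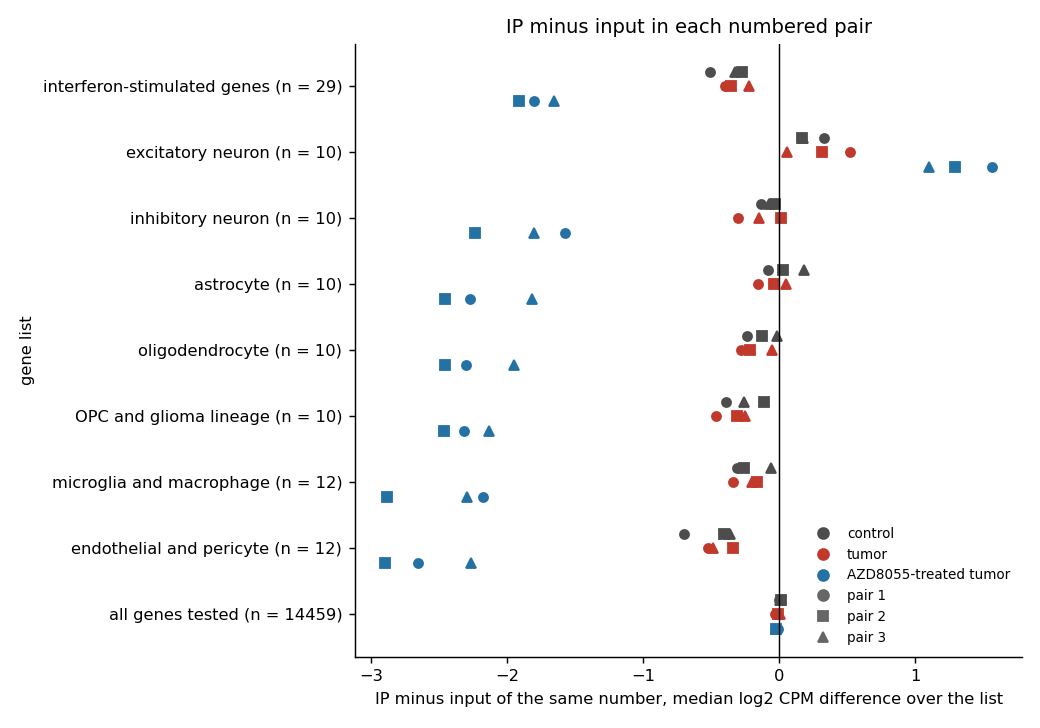
Median log2 difference of IP minus input within each numbered pair (points; shape gives the pair, colour the condition) for the 29 members tested in every comparison, 7 cell type marker lists and all 14459 genes. In treated tumor the members lie between -1.91 and -1.65 and the excitatory neuron list between 1.10 and 1.57; in control and tumor the members lie between -0.51 and -0.22.

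Upstream of the members, interferon mRNAs were barely counted. The 11 interferon ligand genes in the table were too low to be tested, and their summed level was at most 0.638 CPM in any library. Ifnb1 had 1 count in control IP, 0 in tumor IP, 1 in control input and 3 in tumor input, and Ifng had 0, 4, 2 and 0, so a change in either was not detectable at this depth.

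Most of the listed receptor and JAK-STAT genes were higher in tumor IP. In tumor IP against control IP, 9 of 13 were higher and 1 lower, against 26.0% higher and 20.8% lower over all genes, with a median of 0.69. Ifnar1, a type I receptor chain, rose by 0.53 ± 0.09 (adjusted p = 0.000894) and Ifngr1, a chain of the interferon gamma receptor, by 0.42 ± 0.13 (adjusted p = 0.0235). Jak2 rose by 0.67 ± 0.08 (adjusted p = 8.98e-05), and Ifngr2 and Ifnlr1 were not called. Jak1 was the 1 gene that fell (-0.52 ± 0.10, adjusted p = 0.00153), and is named after its value was seen. In AZD IP against tumor IP, 10 of the 13 were lower, against 33.4% of all genes, and Jak1 and Ifngr2 were higher.

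Genes that sense nucleic acid upstream of interferon rose for 8 of 14 in tumor IP (median 0.72; 26.0% of all genes were higher), with Ticam1, the adaptor of Tlr3, at 1.41 ± 0.16, Mb21d1, which encodes cGAS, at 2.07 ± 0.28, and Irf8, a factor of myeloid cells, at 2.54 ± 0.39 (adjusted p = 5.92e-05, 0.000177 and 0.000649). Irf5 (0.04 ± 0.24) and Tlr7 (0.16 ± 0.25) had the largest p-values. Of 40 other interferon-stimulated genes tested, 20 were higher and 2 lower (Ly6e and Adar, named after their values were seen), with a median of 0.60, where 26.0% of all genes were higher and 20.8% lower. Tor3a (1.70 ± 0.20), Eif2ak2, the kinase PKR (1.72 ± 0.23), and Trim21, an antibody receptor (1.72 ± 0.26), had the smallest p-values, and Sp100 and Ifitm1 had the largest. In AZD IP against tumor IP, 29 of those 40 were lower and 2 higher (Ly6e and Adar), where 33.4% of all genes were lower and 25.1% higher. In tumor input against control input, 17 of 41 genes tested from that list were higher and 5 lower (median 0.73). Over all genes there, 24.5% were higher and 23.6% lower.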

How the data were processed

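The authors deposited raw read counts, 1 row per gene symbol, for 18 mouse brain libraries (6 groups of 3), with no 2 columns identical. Reads were aligned with STAR to mm10 and DESeq2 was used, per the submitters' processing notes; for tool versions, counter, annotation and strand setting the sources used here give nothing. RNA was prepared with an RNeasy kit and a directional NEBNext kit, per the labels' protocols. The counts were analysed with edgeR 4.0.16 in R 4.3.3 (TMM scaling, filterByExpr, robust quasi-likelihood test, Benjamini-Hochberg adjustment over all genes tested, threshold 0.05). Each comparison between conditions used the 9 libraries of a fraction, each comparison of IP with input the 6 of a condition, and the differences of changes all 18. CPM values are TMM-scaled over 18 libraries, and log2 CPM adds a prior count of 2.

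Input and IP libraries of the same number deviated together from their group means over 14459 genes (r from 0.240 to 0.792). Each correlated best with its own number. They are therefore called pairs here, from these numbers in the labels and from the data. The main tests of IP against input, and of differences in that ratio, did not use the pairing. In the tests it entered only as the replicate block and in leaving out both libraries of a number. Across conditions r ran from -0.113 to 0.347 and was over 0.1 in 7 of 18 pairs, though the own number was the highest in 13, so the numbers were not taken as pairs. The fits were tested on simulated counts. CPM in every library is given for the tested member with the highest and lowest change in each role and for 7 further members named by the rule (Stat2, Irf7, Isg15, Usp18, Ifit1, Ifit3 and Cxcl10). Members and lists were chosen with earlier results of these data known. DESeq2 1.42.0, other scalings and filters, the replicate block and leaving out each library were the alternatives. Motifs were searched in RefSeq promoter windows of GRCm38.p6. Intervals on count ratios cover counting error only. 1 gene counted in a pathway list is not reported here by name.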

Additional observations from a re-analysis of the deposited data

Results flagged for a closer look

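The difference between AZD8055-treated and untreated tumor in the IP over input ratio passed the test of that difference itself (edgeR, 18 libraries, adjusted over all genes tested) for 18 of 33 members, where 20.7% of all genes were lower, and for 8 of the 16 members whose CPM is given library by library, a group chosen partly for the highest and lowest changes of each role. The log2 differences were -2.61 for Usp18, -2.52 for Trim25, -2.18 for Rtp4, -2.10 for Parp14, -2.01 for Ifi47, -1.49 for Ifit3, -1.22 for Bst2 and -1.11 for Ddx58. The values of Trim25, Rtp4 and Parp14 passed under every alternative run. Without AZD pair 2 the adjusted p was 0.0525 for Usp18, 0.0618 for Ifit3, 0.0511 for Ddx58 and 0.102 for Ifi47. Ifi47 also missed the threshold without AZD pair 1 (0.0524) or 3 (0.0549), and Bst2 without AZD pair 1 (0.07), tumor pair 2 (0.0536) or tumor pair 3 (0.0542). Most microglia, endothelial, astrocyte, oligodendrocyte, glioma lineage and inhibitory neuron markers were also lower in this test, as given above. Their part in the members' values was not tested. Treated and untreated libraries lie in different library sets, and the set and the treatment cannot be told apart.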

How the results depend on the processing

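Of 264 alternative values of the counts of members called, 232 were within 1.5 times the main count and 32 were not. Main counts of 0 that stayed 0 are among the 232, so that number says less about the counts above 0. Of 2004 alternative values of single members, 0 changed direction while called, 65 lost the call and 33 gained it. With a mean of at least 5 CPM required, 17 members were tested in tumor against control IP and 15 were higher; 14 were lower in AZD against tumor IP, 0 higher and 1 lower in AZD against control IP, 4 lower in control IP against input and 17 lower in AZD IP against input, and fewer members tested is part of that setting. With all 18 libraries in one fit, 0 were higher in AZD against tumor input, 0 higher in AZD against control IP, and 0 higher and 2 lower in control IP against input. DESeq2 called 3 higher in AZD against control IP. With the replicate block that count was 2, and in tumor IP against input 2 were higher and 13 lower. In the other comparisons the block left the counts within 1.5 times the main ones, with 26 higher in tumor IP, 24 in tumor input and 26 lower in the ratio of AZD against tumor. Between conditions within a fraction the block has no basis in the design, so its counts there say little about stability. The causes were not tested.

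Leaving out each library in turn gave 21 to 26 members higher in tumor IP, 18 to 24 in tumor input, 22 to 28 lower in AZD against tumor IP and 22 to 26 lower in AZD IP against input. It gave 0 to 2 higher and 0 to 1 lower in AZD against tumor input, 0 to 1 higher and 1 to 3 lower in AZD against control IP, 13 to 22 higher in AZD against control input, 0 to 1 higher and 6 to 7 lower in control IP against input, and 11 to 21 lower in the ratio of AZD against tumor. With plain library totals the median over all genes moved to -0.226 in AZD against tumor IP (members -1.88), to -0.300 in AZD IP against input (members -2.04) and to -0.223 in the ratio of AZD against tumor (members -1.67). Zbp1, Mx1 and Isg15 averaged 0.219, 0.588 and 0.684 CPM over all libraries, the 3 members under 1 CPM, and Cxcl10 had 1 count in each control input library.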
